A study of Mus musculus with 18 samples.

Results

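The 8 genes Gata4, Gata6, Sox17, Sox7, Hnf4a, Foxq1, Pdgfra and Dab2, which mark the primitive endoderm lineage, were followed through bulk RNA sequencing of the 3 stem cell types of the early mouse embryo. They were taken by gene symbol and are 8 of the 14804 genes listed in at least 1 of the 3 tables. All 8 were listed for embryonic stem cells (ESCs) and for extra-embryonic endoderm stem (XEN) cells, and 6 for trophoblast stem cells (TSCs), where Sox17 and Hnf4a had no row. Transcription factors are encoded by 6 of them. Pdgfra encodes a receptor tyrosine kinase for platelet-derived growth factor, and Dab2 an adaptor protein of clathrin-mediated endocytosis.

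Each cell type was grown in normoxia or in hypoxia for 2 or 7 days, with 2 libraries per condition and 18 libraries in all. The ESCs were of the E14 line, kept on gelatin without feeders. The TSCs were kept with feeder fibroblasts, and the XEN cells in medium that fibroblasts had conditioned. No allele or agent other than oxygen set the conditions apart. The expression tables called their normoxia columns day 0, and these were read as the normoxia samples. The values are TPM, a transcript level scaled to gene length and library depth. Depth ran from 35592641 to 75204029 reads per library, recovered from the TPM steps.

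In the blastocyst, the inner cell mass separates into epiblast and primitive endoderm. Fibroblast growth factor signalling favours the endoderm fate, GATA6 acts early in it, and GATA4, SOX17 and SOX7 follow. The primitive endoderm later gives rise to visceral endoderm, where HNF4A drives genes of nutrient transport and secretion, and to parietal endoderm. XEN cells are the cultured counterpart of this lineage, ESCs of the epiblast and TSCs of the trophectoderm.

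The ESC and TSC labels were checked against lists of markers. The XEN markers were the 8 members themselves, so the XEN label had no separate check. The summed level of 7 ESC markers lay between 7370 and 8148 TPM in the ESC libraries and at no more than 1289 TPM elsewhere, and the summed level of 8 TSC markers between 7987 and 15379 TPM in the TSC libraries and at no more than 160.3 TPM elsewhere. A sum does not describe each marker. Klf4, an ESC marker here, was higher in XEN cells (622.6 to 1193 TPM) than in ESCs (325.5 to 441.5 TPM). In the TSC libraries, Cdx2, Elf5, Gata3 and Ascl2 reached at most 168.9 TPM, so other markers carried most of that sum. The summed level of 10 fibroblast markers reached 1928 TPM in the TSC libraries, 52.0 TPM in ESCs and 0.650 TPM in XEN cells. In bulk RNA, fewer cells of a type and less RNA per cell cannot be told apart.

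In build GRCm38, Gata4 spans chr14:63198922-63271692 (minus strand) and Sox7 chr14:63943673-63950732 (plus strand). Sox17 spans chr1:4490931-4497354 (minus strand), Foxq1 chr13:31556134-31560976, Hnf4a chr2:163506808-163572910, Pdgfra chr5:75152292-75198215 and Dab2 chr15:6299788-6440712, the last 4 on the plus strand. Apart from Gata4 and Sox7, each of the 8 overlaps at least 1 other annotated gene. Pdgfra and Dab2 had a promoter window in RefSeq (GRCm38.p6) whose printed bases lie outside annotated exons, and are shown because Pdgfra changed in TSCs and Dab2 differed in sign between cell types. The window of Pdgfra, chr5:75152001-75152250 on the plus strand, holds none of the motifs searched. The window of Dab2, chr15:6299539-6299787 on the plus strand, holds 1 GATA motif, marked in capitals.
Pdgfra: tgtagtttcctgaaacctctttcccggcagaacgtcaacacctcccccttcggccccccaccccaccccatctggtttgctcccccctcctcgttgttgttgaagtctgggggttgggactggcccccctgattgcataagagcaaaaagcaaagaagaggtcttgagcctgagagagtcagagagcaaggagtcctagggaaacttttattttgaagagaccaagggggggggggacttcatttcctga
Dab2: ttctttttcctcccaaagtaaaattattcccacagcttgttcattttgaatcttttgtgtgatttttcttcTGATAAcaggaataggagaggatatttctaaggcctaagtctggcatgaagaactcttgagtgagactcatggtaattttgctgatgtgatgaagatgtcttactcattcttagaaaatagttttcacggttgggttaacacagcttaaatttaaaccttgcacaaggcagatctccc
Both strands of windows of 250 bases were searched for 3 motifs. The GATA motif was taken as AGATAA, or with another first letter as TGATAA, and 16.6% of 32851 windows held it. The SOX motif, AACAAT, was in 9.42% of windows. The core of the hypoxia response element, ACGTG, was in 16.6% of windows. A match is a description of letters, not of binding. Gata6 was left out of the search for member windows, and 3 of the other members had windows, 5 in all. A second window of Dab2 holds 2 copies of ACGTG, 1 of the 2 windows of Hnf4a holds a GATA motif, and the other holds none of the 3.

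All 8 members were higher in XEN cells than in ESCs, and the 6 listed for TSCs were higher in XEN cells than there, with no overlap between libraries. The tables were normalized separately, so the levels across cell types are given without a test. The share of all genes with such a separation was not computed. The members were chosen as markers of this lineage, so their higher level in XEN cells is no independent finding. The ratio of the lowest XEN library to the highest ESC library ran from 1.73 for Hnf4a to 930.1 for Sox17. Against TSCs it ran from 9.64 for Dab2 to 84.2 for Sox7.

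**Figure D1:**
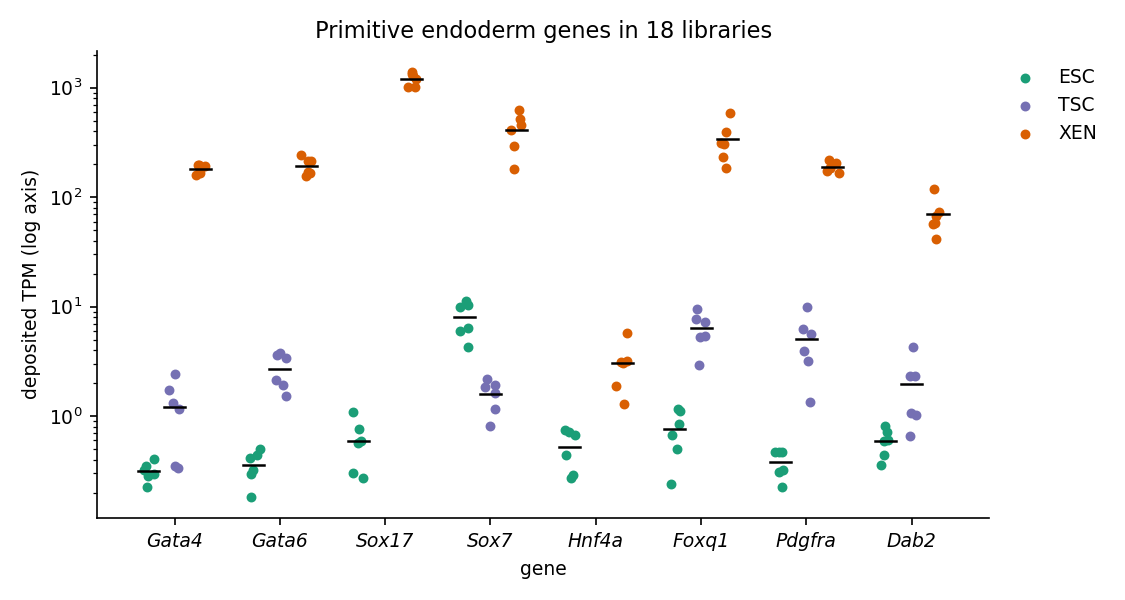
Deposited TPM (log axis) of the 8 genes in each of the 18 libraries, coloured by cell type, with a line at the mean over the 6 libraries of a cell type. The XEN libraries lie above all ESC and TSC libraries that list a gene, by the smallest margin for Hnf4a, and Sox17 and Hnf4a have no TSC values.

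Gata4 and Gata6 encode zinc finger factors that bind the same GATA motif. In XEN cells, Gata4 stood at 197.4 and 193.1 TPM in normoxia, 197.0 and 178.7 after 2 days of hypoxia and 158.8 and 167.4 after 7 days. Gata6 stood at 154.6 and 244.1 TPM in normoxia, 214.1 and 166.9 after 2 days of hypoxia and 170.8 and 215.9 after 7 days. Both day 7 libraries were the lowest for Gata4, while the conditions overlapped for Gata6. The study, by immunofluorescence, reported higher GATA4 after 7 days of hypoxia. That is a protein measure per nucleus, and was not compared with the RNA level here. Gata4 was also the steadiest member between replicates: its standard deviation was 0.066 on the log2 scale, and 4.63% of 10894 genes had a smaller one.

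Sox17 and Sox7 encode related HMG-box factors. Sox17 stood at 1289 and 1009 TPM in normoxia, 1207 and 1393 after 2 days of hypoxia and 1325 and 1022 after 7 days. The conditions overlapped, and 98.8% of the genes in the XEN table had a lower mean TPM. Sox7 stood at 182.5 and 407.1 TPM in normoxia, 624.0 and 517.8 after 2 days of hypoxia and 456.0 and 291.8 after 7 days. Both day 2 libraries were above the other 4. The gene lies 672.0 kb from Gata4 on chromosome 14.

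Hnf4a, a nuclear receptor of visceral endoderm and liver, was the lowest member in XEN cells, at 5.73 and 3.11 TPM in normoxia, 3.06 and 1.89 after 2 days of hypoxia and 1.28 and 3.20 after 7 days. Its mean was above that of 22.5% of the genes in the table, so the level of this factor set it apart from the other 7. Foxq1, a forkhead factor, stood at 592.4 and 234.9 TPM in normoxia, 398.3 and 309.7 after 2 days of hypoxia and 304.0 and 183.6 after 7 days. The gene overlaps the protein-coding A530084C06Rik on the other strand, and whether counting used strand is not given in the sources used here, so reads of both may be included.

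Pdgfra stood at 167.5 and 218.4 TPM in XEN cells in normoxia, 185.7 and 171.8 after 2 days of hypoxia and 185.8 and 207.1 after 7 days, a narrow range in which normoxia spanned both hypoxic groups. Dab2 stood at 57.2 and 119.0 TPM in normoxia, 58.4 and 41.4 after 2 days of hypoxia and 67.8 and 74.0 after 7 days. Its second normoxia library was the highest of the 6.

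The order of the members depended on the length used. In the deposited TPM, which scale with the whole gene span, the XEN means fell in the order Sox17 (1208), Sox7 (413.2), Foxq1 (337.2), Gata6 (194.4), Pdgfra (189.4), Gata4 (182.1), Dab2 (69.6) and Hnf4a (3.04). From Sox7 down to Gata4, neighbours overlapped between libraries. Scaled to summed exon length, Gata4 came first at 1040 TPM, above Sox17 at 498.4 and Dab2 at 410.3 TPM, and Gata6 (307.3) and Hnf4a (12.8) kept their places in the order. The span of Gata4 is 18.6 times its exon length and that of Dab2 19.2 times, against 1.35 times for Sox17.

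**Figure D2:**
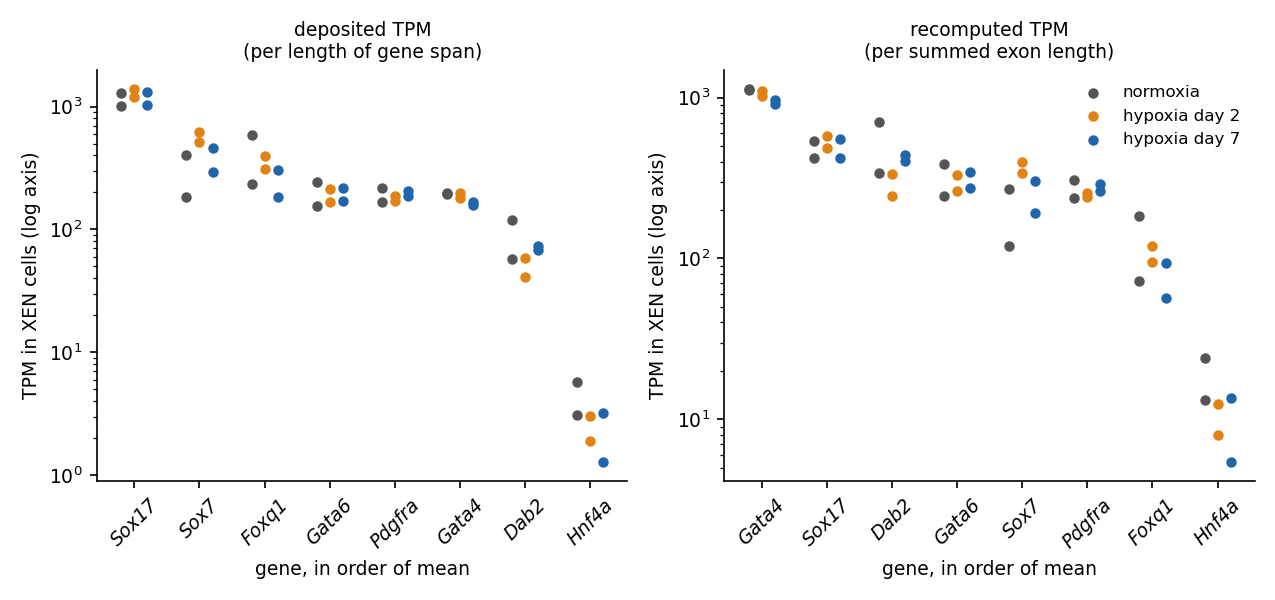
TPM in the 6 XEN libraries (log axis) on the deposited scale, per gene span, and recomputed per summed exon length, with genes in order of their mean and points coloured by condition. Gata4 moves from place 6 to place 1 and Foxq1 from place 3 to place 7, while Gata6 keeps place 4 and Hnf4a is last on both.

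The next question was whether hypoxia moved these genes in XEN cells. A gene was called when limma gave an adjusted p of at most 0.1 over all genes tested and a change above 1.5-fold, on the log2(TPM + 0.5) scale. None of the 8 members was called on day 2 against normoxia, where 0% of 10894 genes were called, on day 7 against normoxia (0.11% called) or on day 7 against day 2 (0.0367% called). At an unadjusted p under 0.05, 7.77%, 9.01% and 11.9% of genes passed, and limma-voom on the recovered reads called no member either. With edgeR at the same thresholds, the study called many more genes against normoxia in each cell type than this fit. A member that was not called is therefore not shown to be unchanged. The median change of the members was -0.07, -0.12 and -0.17 on the log2 scale, against -0.01, -0.03 and -0.02 over all genes.

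Without overlap between libraries, Sox7 was above (19.6% of genes were) and Hnf4a below (21.4%) on day 2 against normoxia, and on day 7 against day 2 Pdgfra and Dab2 were above (21.7%) and Gata4, Foxq1 and Sox7 below (25.9%). The largest member change in XEN cells was that of Sox7 on day 2 against normoxia, at 1.06 on the log2 scale (SE 0.39, limma adjusted p = 0.597). Its 95% interval ran from 0.14 to 1.98, and the value was 0.48 without normoxia replicate 1 and 1.64 without normoxia replicate 2. Gata4 on day 7 against normoxia differed by -0.26 (SE 0.14, limma adjusted p = 0.633), with both libraries below normoxia, as in 23.9% of genes. Its interval, -0.58 to 0.06, ended near no change on the upper side. For Hnf4a the difference on day 7 was -0.88 (SE 0.43, limma adjusted p = 0.609), and for Dab2 on day 2 it was -0.74 (SE 0.34, limma adjusted p = 0.674). With 1 library left out, Hnf4a ran from -1.41 (without day 7 replicate 2) to -0.36 (without day 7 replicate 1), and Dab2 from -1.27 (without normoxia replicate 1) to -0.22 (without normoxia replicate 2). Gata6, Sox17 and Pdgfra had differences between -0.10 and 0.18 against normoxia.

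The hypoxia target Egln3, a prolyl hydroxylase, served as a check of the treatment. It stood at 11.8 and 14.4 TPM in normoxic XEN cells and at 80.6 and 110.2 TPM on day 7, a log2 change of 2.81 (SE 0.20, limma adjusted p = 0.0119). It was the only 1 of 7 hypoxia targets called there. None of the 8 other endoderm transcription factors tested, 15 genes of the FGF pathway, 5 of PDGF signalling, 11 of DAB2 endocytosis, 8 visceral endoderm products and 14 parietal endoderm products was called in XEN cells in any of the 3 comparisons. The members did not move together across the 6 XEN libraries. Of 28 pairs, 14 had a correlation above 0, from -0.91 for Sox17 with Pdgfra to 0.91 for Gata6 with Pdgfra. These are descriptions over 6 libraries that also differ in depth and condition. By the same measure, the gene most like Gata4 was Psmd14 (r = 0.996), and 240 of 10893 genes had an r above 0.9 with Gata4, whose log2 range was 0.31.

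**Figure D3:**
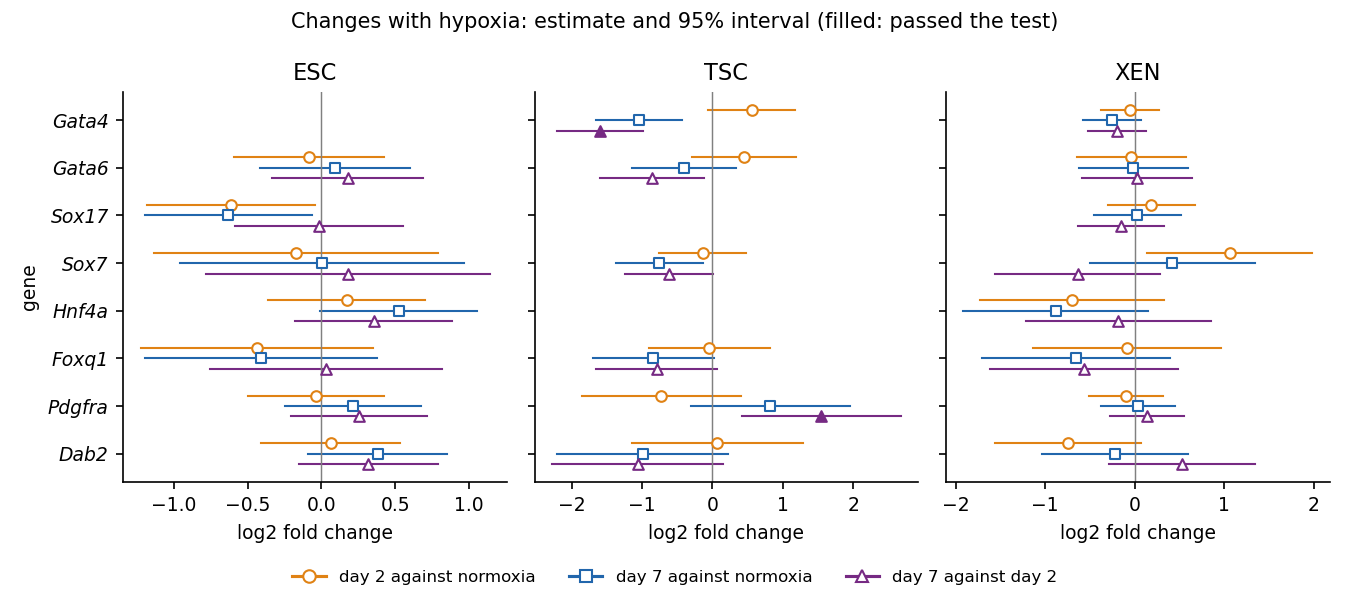
Log2 fold change of each member (x axis) with its 95% interval, in ESCs, TSCs and XEN cells, for day 2 against normoxia (circles), day 7 against normoxia (squares) and day 7 against day 2 (triangles). Filled symbols passed the test, and these are Gata4 and Pdgfra in TSCs on day 7 against day 2.

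In TSCs, 2 of the 6 members tested were called on day 7 against day 2, Gata4 lower and Pdgfra higher, in a comparison where 16.2% of 12481 genes were called (13.8% lower and 2.37% higher). The 2019 genes called there fell to 30 without day 2 replicate 1, to 284 without day 7 replicate 1 and to 0 without day 7 replicate 2, while the other libraries left out gave 1519 to 2215. Gata4 stood at 1.16 and 1.317 TPM in normoxia, 2.42 and 1.73 after 2 days of hypoxia and 0.336 and 0.352 after 7 days, or 95 to 701 reads. Day 2 was the highest and day 7 the lowest group, without overlap. Between the hypoxic days Gata4 fell by 1.60 on the log2 scale (SE 0.26, limma adjusted p = 0.0237). Against normoxia the day 7 difference was -1.04 (SE 0.26, limma adjusted p = 0.248), which did not pass. The change ran from -2.43 with limma-voom to -1.19 with a pseudocount of 1 and was called under both. Gata4 lost the call without each of those 3 libraries in turn (adjusted p = 0.162, 0.109 and 0.183).

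Pdgfra stood at 5.62 and 3.21 TPM in TSCs in normoxia, 1.36 and 3.94 after 2 days of hypoxia and 9.93 and 6.29 after 7 days. Both day 7 libraries were the highest of the 6, and 14.3% of genes were above day 2 without overlap. The gene rose by 1.55 between the hypoxic days (SE 0.48, limma adjusted p = 0.0937), and by 0.82 against normoxia, which did not pass (adjusted p = 0.604). The call was lost with no filter on low values (adjusted p = 0.12), with the replicate number as a block (adjusted p = 0.131) and without the same 3 libraries (adjusted p = 0.42, 0.28 and 0.254).

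Feeder fibroblasts express Pdgfra, and their markers varied between TSC libraries. The 10 markers summed to 1928 and 292.0 TPM in normoxia, 225.5 and 1017 after 2 days of hypoxia and 481.9 and 291.8 after 7 days. None of the 10 was called between the hypoxic days. Pdgfra, multiplied up to a marker sum of 1000 TPM, was 2.91 and 11.0 in normoxia, 6.03 and 3.88 after 2 days of hypoxia and 20.6 and 21.6 after 7 days. The day 7 libraries were thus highest on this scale too, and the part of feeder RNA in the Pdgfra level was not tested further.

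The other 4 members in TSCs were lower on day 7 than on day 2 without overlap, as in 44.9% of genes, and none was called. Gata6 stood at 3.37 and 1.91 TPM in normoxia, 3.78 and 3.59 after 2 days of hypoxia and 2.13 and 1.53 after 7 days, a difference between the hypoxic days of -0.85 (SE 0.31, limma adjusted p = 0.134). The differences were -1.06 for Dab2, -0.79 for Foxq1 and -0.62 for Sox7 (adjusted p = 0.231, 0.209 and 0.181). The median member change was -0.82, against -0.24 over all genes. On day 2 against normoxia (0.2% of genes called) and day 7 against normoxia (0.385% called), no member was called. Without overlap, Gata4 and Gata6 were above normoxia on day 2 (30.6% of genes were), and on day 7 Pdgfra was above (8.98%) and Gata4, Foxq1 and Sox7 below (32.3%). Without normoxia replicate 2, Dab2 was called on day 7 against normoxia, with a log2 change of -1.82 (limma adjusted p = 0.0833), in a fit where normoxia is 1 library assumed to vary like the other groups. The remaining normoxia library held the highest sum of fibroblast markers, 1928 TPM. Dab2, multiplied up to a marker sum of 1000 TPM, was 2.23 in that library and 2.23 and 2.27 on day 7. On the same scale it was 3.48 in normoxia replicate 2 and 10.3 and 2.30 on day 2. The part of feeder RNA in the Dab2 level was not tested. Without normoxia replicate 1, the change was -0.16 (adjusted p = 0.971).

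The lists around the members are given for the hypoxic days in TSCs beside the 13.8% of all genes called lower and 2.37% called higher. Of 8 paralogs and cofactors tested, 2 were called lower: Gata3, a trophoblast GATA factor, at -0.96 (adjusted p = 0.0841), and Zfpm1, a GATA cofactor, at -1.69 (adjusted p = 0.0195). Of 16 FGF pathway genes, 4 were called lower, among them the receptor gene Fgfr4 (-2.89) and the transcriptional targets Etv5 (-1.86) and Etv4 (-1.29). In PDGF signalling, the ligand gene Pdgfa was called higher by 0.93 (adjusted p = 0.0736) and Plcg1 lower at -1.75, of 7 tested. Of 10 DAB2 endocytosis genes, 3 were called lower, namely Amn, Myo6 and Fcho2. Of 8 TSC markers, 5 were called lower, with Elf5 at 82.5 and 85.1 TPM on day 2 and 18.8 and 14.7 TPM on day 7. None was called higher, but 2 were above day 2 without overlap, as 14.3% of genes were. The summed level of the 8 TSC markers was higher on day 7, at 9266 and 7987 TPM on day 2 and 15379 and 13436 TPM on day 7. Elf5, Cdx2, Gata3 and Ascl2, all called lower, reached at most 168.9 TPM in any TSC library. Other markers therefore carried most of the sum, which does not describe the list as a group. The hypoxia target Pdk1 stood at 15.5 and 14.5 TPM in normoxia, 89.6 and 82.0 after 2 days of hypoxia and 15.6 and 15.2 after 7 days, with day 7 and normoxia overlapping. It had the smallest day 7 difference from normoxia of the 7 hypoxia targets tested, 0.03 on the log2 scale. All 7 differences were above 0 with a median of 0.54, against -0.18 over all genes, and none was called. Bnip3, for example, stood at 15.7 and 16.2 TPM in normoxia and 25.0 and 26.8 TPM on day 7, a difference of 0.68 (adjusted p = 0.265).

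**Figure D4:**
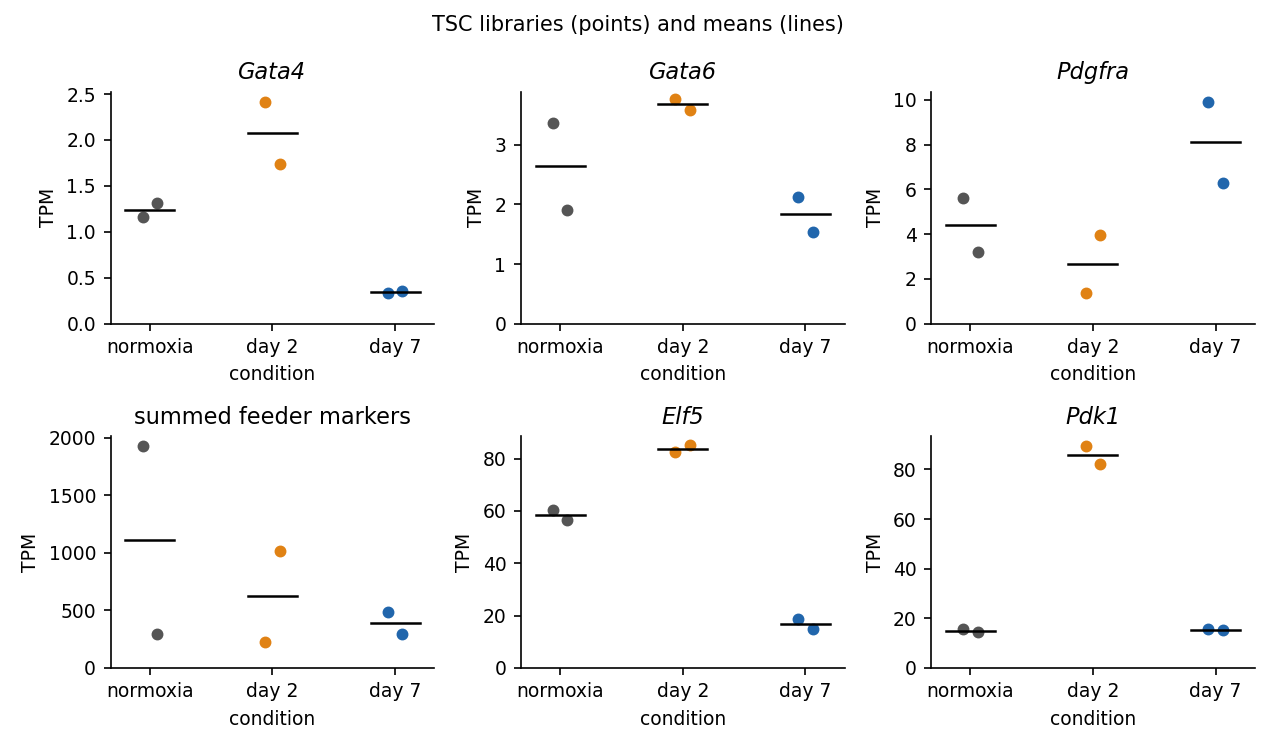
TPM of Gata4, Gata6 and Pdgfra, the summed fibroblast markers, the TSC marker Elf5 and the hypoxia target Pdk1 in the 6 TSC libraries, as points by condition with a line at the mean of 2. Gata4, Elf5 and Pdk1 are highest on day 2, Pdgfra is highest on day 7, and the fibroblast markers overlap between conditions.

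In ESCs, 7 of the 8 members lay between 0.184 and 1.17 deposited TPM in every library. Sox7 was the exception on this scale, at 9.92 and 6.33 TPM in normoxia, 11.2 and 4.27 after 2 days of hypoxia and 6.04 and 10.4 after 7 days, with conditions that overlapped. Scaled to summed exon length, Sox7 (3.04 to 8.13 TPM) overlapped Dab2 (2.35 to 5.28 TPM). Hnf4a and Gata4 then had means of 2.39 and 1.97 TPM. Of the 6 members listed for TSCs, Sox7 was the only 1 lower there than in ESCs, at 0.822 to 2.17 TPM in TSCs. Sox17 and Hnf4a had no TSC row to compare. Gata6, Foxq1 and Pdgfra were higher in TSCs than in ESCs in every library, while Gata4 and Dab2 overlapped. The share of all genes that differ in this way was not computed. Fibroblast markers summed to 225.5 to 1928 TPM in TSCs and to at most 52.0 TPM in ESCs. The part of feeder RNA in the TSC levels was not tested.

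No member was called in ESCs on day 2 against normoxia (0% of 12271 genes called), day 7 against normoxia (0.758%) or day 7 against day 2 (0.179%). At an unadjusted p under 0.05, 5.05% of genes passed in the first of these, and limma-voom on the recovered reads called no member either. Gata4, at 0.227 to 0.407 TPM, did not pass the filter of more than 0.4 TPM in 2 libraries and was not tested. Sox17 stood at 1.09 and 0.768 TPM in normoxia, 0.572 and 0.301 after 2 days of hypoxia and 0.589 and 0.271 after 7 days, on 6 to 22 reads per library. All 4 hypoxic libraries were below normoxia, as in 14.4% of genes on day 2 and 17.5% on day 7, with differences of -0.61 on day 2 (SE 0.25, limma adjusted p = 0.970) and -0.63 on day 7 (SE 0.25, limma adjusted p = 0.554). Hnf4a and Dab2 were above normoxia on day 7 without overlap, as 23% of genes were, and above day 2 together with Pdgfra, as 15.2% were. Hnf4a stood on day 7 at 0.741 and 0.715 TPM against 0.441 and 0.275 TPM in normoxia, a difference of 0.52 (SE 0.23, limma adjusted p = 0.626).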

How the data were processed

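RNA was measured in 18 bulk libraries, 3 conditions in each of 3 cell types with 2 replicates. Per the labels, the authors used cutadapt 2.4, STAR 2.7.5a, StringTie 2.0.6, featureCounts and edgeR 3.26.8 with build mm10, and deposited 1 table of TPM per cell type. Scaled by gene span, introns included, the deposited TPM gave whole reads (tolerance 0.05) for most genes but not all, which gave the depths: 13395 of the 13578 ESC genes came out whole in each library, as did 13330 of the 13518 TSC genes and 11367 of the 11538 XEN genes, every member among them. The 3 tables were normalized separately and were tested one at a time. Genes above 0.4 TPM in at least 2 of 6 libraries were fitted as log2(TPM + 0.5) with limma 3.58.1 (R 4.3.3), with a mean-variance trend, all 3 conditions together and Benjamini-Hochberg adjustment over all genes tested. The code was tested on simulated data. Members, lists and the rule for named genes were chosen with earlier results of these data known: all members, up to 3 genes per list and direction among those called, and otherwise up to 2 without overlap. The study names the replicates biological. An exact permutation test of 2 against 2 cannot go below 0.333. Alternatives covered the pseudocount, filter, scaling, length, block, trend and each library left out.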

Additional observations from a re-analysis of the deposited data

Results flagged for a closer look

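Dab2 on day 7 against day 2 differed in opposite directions between cell types, with no overlap between libraries in each. The log2 fold change was 0.32 in ESCs and -1.06 in TSCs, and 0.52 in XEN cells. None of these passed the test within its cell type, and the difference between cell types was not tested.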

How the results depend on the processing

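In TSCs on day 7 against day 2, 2 members were called, and 1 with no filter on low values, with the replicate block or at an adjusted p of at most 0.05; Pdgfra lost its call in each. Leaving out 1 library gave 0 to 3. On day 7 against normoxia in TSCs, the count ran from 0 to 1. No other count of called members moved. Same-numbered samples were not taken as pairs, as the methods name no block. The correlation of their deviations ran from -0.46 to 0.27, and the replicate block changed no other member's call.

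Of 672 member values under settings that kept all libraries, 12 reversed, all of them small and uncalled. In ESCs these were Sox7 on day 7 against normoxia (-0.030 with median-ratio scaling, -0.068 with quantile normalization, -0.00399 with exon length, -0.017 with limma-voom), Gata6 in the same comparison (-0.053, quantile), Foxq1 on day 7 against day 2 (-0.064 with pseudocount 0.1, -0.088 quantile, -0.014 limma-voom) and Sox17 there (0.023, limma-voom). The others were Dab2 in TSCs on day 2 against normoxia (-0.12, quantile) and Gata6 in XEN cells on day 7 against normoxia (0.016 median-ratio, 0.033 quantile). The cause was not tested. Leaving out a library reversed 42 of 378 values, and the changes then spanned 0. In ESCs on day 2 against normoxia, they ran over Gata6 -0.32 to 0.15, Sox7 -0.82 to 0.48, Pdgfra -0.25 to 0.17, Dab2 -0.12 to 0.25 and Hnf4a -0.11 to 0.45. In ESCs on day 7 against normoxia, they ran over Gata6 -0.047 to 0.23, Sox7 -0.37 to 0.37 and Foxq1 -0.997 to 0.18. In ESCs on day 7 against day 2, they ran over Sox17 -0.27 to 0.23, Foxq1 -0.56 to 0.62, Gata6 -0.055 to 0.41 and Sox7 -0.47 to 0.83. In TSCs on day 2 against normoxia, they ran over Dab2 -0.76 to 0.90 and Foxq1 -0.44 to 0.35. In XEN cells on day 2 against normoxia, they ran over Foxq1 -0.75 to 0.58, Gata6 -0.37 to 0.29, Pdgfra -0.29 to 0.093 and Gata4 -0.13 to 0.012. In XEN cells on day 7 against normoxia, they ran over Sox7 -0.16 to 0.998, Foxq1 -1.32 to 0.0085, Pdgfra -0.15 to 0.23, Gata6 -0.35 to 0.31, Sox17 -0.16 to 0.22 and Dab2 -0.75 to 0.30. In XEN cells on day 7 against day 2, they ran over Hnf4a -0.71 to 0.34, Gata6 -0.16 to 0.20 and Sox17 -0.34 to 0.032. Low read counts limit the ESC values.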
